A study of Mus musculus with 20 samples.

Results

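The genes described here carry the insulin signal in liver cells: the insulin receptor (Insr), its docking proteins (Irs1, Irs2), the regulatory subunit of PI3 kinase (Pik3r1), the AKT kinases (Akt1, Akt2), the FOXO transcription factors (Foxo1, Foxo3) and the receptor-binding adaptors Grb10 and Grb14. They were taken by gene name from the probes that are not controls, and 9 of the 10 listed genes had probes, 21 in all, of which 20 were kept after a filter on dim probes. Irs2 is not analysed here. The 9 measured genes stand among 17210 genes and unnamed probes tested. The livers were those of males of the inbred mouse strain C57BL/6J that ate a diet with 60% of calories from fat once weaned and gave their livers at 6 weeks of age. Of the 20 livers, 10 came from responders, which are susceptible to diet-induced obesity, and 10 from non-responders, which are resistant. Both groups therefore share strain, sex, age and diet, with no lean-diet group, and the labels do not give the criterion that sorted the mice, whether they had fed, or when in the day livers were taken. Each liver had its own single-colour array. No label identifies an animal, so a p-value here reflects only how far these samples scatter.

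Insulin binding switches on the receptor's tyrosine kinase, which phosphorylates the IRS proteins. These recruit PI3 kinase, whose lipid product brings AKT to the membrane, and AKT phosphorylates the FOXO factors and keeps them out of the nucleus. In liver, nuclear FOXO raises genes of glucose output such as G6pc and the binding protein gene Igfbp1, while insulin raises Srebf1, a factor that drives fat synthesis. Grb10 and Grb14 bind the activated receptor and dampen its kinase.

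Levels are log2 of the processed signal relative to each array's 75th percentile, with the brightest kept probe standing for a gene. Arrays came in 2 slide series with both groups in each: the first held 4 responders and 6 non-responders, the second 6 responders and 4 non-responders. A difference is the responder level minus that of non-responders, in log2 units with its standard error (SE), fitted with the series as a term. Hepatocyte markers, Alb and Apoa1 among them, were well above background on all arrays (9 of 10 listed genes measured), and their mean level spanned 6.69 to 7.06 in responders and 6.69 to 7.55 in non-responders. The mean of 6 skeletal muscle markers spanned -6.85 to 4.85 in responders and -5.83 to 4.83 in non-responders, with medians of 0.46 in responders and 3.13 in non-responders. The mean of 11 pancreas acinar markers spanned -5.12 to 5.24 in responders and -4.21 to 5.25 in non-responders, with medians of -0.64 in responders and 0.48 in non-responders. Adipose markers (8 of 10 measured, with Lep and Adrb3 not among the tested genes) spanned -2.72 to 0.15 in responders and -1.91 to 1.49 in non-responders, with medians of -1.75 in responders and 0.32 in non-responders. The part of these other tissues in the results was not tested.

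The upstream windows of 4 genes and a pair of probes are printed because the results turn on these genes. The windows are the 250 bases before the annotated start of the genes whose levels were correlated across livers, from RefSeq on GRCm38.p6, on the gene's own strand. The Irs1 window lies at chr1:82291440-82291689 (minus strand), Grb14 at chr2:65022767-65023016 (minus), Foxo1 at chr3:52268087-52268336 (plus) and Foxo3 at chr10:42276696-42276945 (minus). Capitals mark matches to any of 5 motifs, searched on both strands: the FOXO core GTAAACA, the insulin response element core TGTTTT, the E-box CACGTG bound by clock factors, the D-box TTATGNAA and the cyclic AMP response element TGACGTCA.
Irs1 upstream: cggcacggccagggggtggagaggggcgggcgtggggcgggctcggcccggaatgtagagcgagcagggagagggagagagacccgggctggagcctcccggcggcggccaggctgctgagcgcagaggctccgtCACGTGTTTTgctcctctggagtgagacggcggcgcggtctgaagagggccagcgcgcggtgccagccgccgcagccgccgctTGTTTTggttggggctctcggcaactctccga
Grb14 upstream: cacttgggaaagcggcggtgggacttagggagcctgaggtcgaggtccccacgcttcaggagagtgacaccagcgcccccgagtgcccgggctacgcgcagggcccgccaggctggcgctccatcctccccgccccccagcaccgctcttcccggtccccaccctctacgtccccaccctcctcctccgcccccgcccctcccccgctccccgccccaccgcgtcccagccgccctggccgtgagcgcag
Foxo1 upstream: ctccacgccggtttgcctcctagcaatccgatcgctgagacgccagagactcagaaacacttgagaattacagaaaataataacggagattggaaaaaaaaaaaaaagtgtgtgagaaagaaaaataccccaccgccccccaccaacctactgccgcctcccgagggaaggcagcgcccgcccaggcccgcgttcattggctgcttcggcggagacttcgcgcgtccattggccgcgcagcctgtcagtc
Foxo3 upstream: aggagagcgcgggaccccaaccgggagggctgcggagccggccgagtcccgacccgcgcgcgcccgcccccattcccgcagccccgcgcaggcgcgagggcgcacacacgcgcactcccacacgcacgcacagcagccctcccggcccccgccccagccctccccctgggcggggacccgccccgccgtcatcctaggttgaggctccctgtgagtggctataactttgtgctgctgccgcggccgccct
The Irs1 window alone held matches: the E-box at -115 to -110 from the start, overlapping TGTTTT at -111 to -106, and a second TGTTTT at -32 to -27. Of 32851 windows of this length, 6.02% held CACGTG, 19.8% TGTTTT, 3.17% GTAAACA, 3.07% TTATGNAA and 1.55% TGACGTCA. Foxo1's window was 56.0% G and C, against 72.4% for Irs1, 75.2% for Grb14 and 76.4% for Foxo3. The probes below lie in coding sequence, and their positions are those of the array annotation (mm9): Foxo1 chr3:52150183-52150242 (plus strand) in the C-terminal part, and Insr chr8:3159473-3159532 (minus strand) in the kinase domain.
Foxo1 probe A_51_P138044: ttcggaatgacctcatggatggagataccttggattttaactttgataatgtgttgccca
Insr probe A_52_P6490: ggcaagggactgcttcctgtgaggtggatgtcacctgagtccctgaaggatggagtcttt

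None of the 9 genes differed between responder and non-responder livers at an adjusted p under 0.05, and none of all 17210 tested features did (0%). At an unadjusted p under 0.05, 0 of the 9 passed, against 7.98% of all features (1374, of which 732 or 4.25% were higher and 642 or 3.73% lower in responders). The 9 split into 5 higher and 4 lower, with a median difference of 0.05, against -0.0031 over all features. For 3 of the 9 genes (33.3%) both series gave the same sign, against 48.8% of all features. Each of the 9 signs turned under at least 1 alternative setting.

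Insr, the receptor, had its lowest, median and highest levels at 0.59, 1.30 and 1.56 in responders, against 0.66, 0.89 and 1.67 in non-responders. The groups overlapped almost fully, and the second series lay 0.61 above the first, with more responders in it. The difference was -0.03 (SE 0.07; 95% interval -0.17 to 0.12; adjusted p = 0.932), -0.07 among first-series arrays and 0.02 among second-series ones. Its second probe, in the kinase domain and printed above, ran against the first probe in the first series (r = -0.677) but not in the second (0.0102), with r = -0.364 over all livers. The second probe's shift between series was -0.68, opposite to the first probe's 0.61. With the mean of both probes the difference was 0.10. In bulk tissue, fewer cells of a type and less RNA per cell cannot be told apart.

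Irs1, a docking protein, spanned 0.76 to 1.99 in responders (median 1.30) and 0.63 to 1.78 in non-responders (median 1.29). Both groups covered the same range, and the spread among livers of a group was larger than the difference between groups. That difference was 0.05 (SE 0.18; -0.32 to 0.43; adjusted p = 0.951), 0.36 among first-series arrays and -0.25 among second-series ones. A second Irs1 probe gave a difference of 0.30 (SE 0.19, limma adjusted p = 0.706). It followed the first probe at r = 0.658. Pik3r1, the PI3 kinase regulatory subunit, spanned 0.74 to 1.55 in responders (median 1.03) and 0.43 to 1.36 in non-responders (median 1.04). The groups overlapped, with 8 of 10 responders over the mean of the non-responders scanned with them. Pik3r1 had the smallest p of the 9, with a difference of 0.20 (SE 0.10; unadjusted p = 0.0503, adjusted p = 0.625; exact permutation p = 0.054), and 0.08 and 0.32 in the 2 series. Its other 3 probes gave 0.17, 0.19 and 0.0034.

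Akt1 and Akt2 encode the kinases at the centre of the pathway. Akt1 spanned 3.06 to 3.62 in responders (median 3.36) and 3.22 to 3.60 in non-responders (median 3.44), and Akt2 spanned 1.86 to 2.18 in responders (median 2.06) and 1.87 to 2.17 in non-responders (median 2.01). These 2 genes had the narrowest spread of the 9, with SDs of 0.16 and 0.12 in responders and 0.11 and 0.09 in non-responders. The Akt1 probe had 10 spots on each array and those of the other genes 1, so the Akt1 spread was not measured like the others. The Akt1 difference was -0.04 (SE 0.06; adjusted p = 0.88) and the Akt2 difference 0.06 (SE 0.05; adjusted p = 0.783). The second probe of Akt2 followed the first in the second series (r = 0.843) but not in the first series (0.0176), with r = 0.673 over all livers. That of Akt1 followed its first probe weakly (r = 0.155), at 0.273 and 0.0593 in the 2 series.

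Foxo1, the main hepatic FOXO factor, spanned 2.61 to 3.84 in responders (median 3.17) and 2.54 to 3.72 in non-responders (median 3.26). Neither group sat apart from the other, and its 2 probes tracked each other (r = 0.942). The difference was -0.14 (SE 0.16; -0.49 to 0.20; adjusted p = 0.831), -0.39 among first-series arrays and 0.10 among second-series ones. Foxo3 was dim: its brighter probe was well above background in 8 responder and 8 non-responder livers, and spanned -5.63 to -3.22 in responders (median -4.31) and -5.47 to -3.44 in non-responders (median -4.38). The second Foxo3 probe was not kept. The Foxo3 difference was 0.06 (SE 0.28; adjusted p = 0.962).

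Grb10 spanned -1.60 to -0.38 in responders (median -0.76) and -1.26 to -0.15 in non-responders (median -0.55). The difference was -0.19 (SE 0.16; -0.53 to 0.15; adjusted p = 0.788), -0.49 among first-series arrays and 0.11 among second-series ones. The interaction of group and series had an unadjusted p = 0.0631, where 9.69% of all features passed 0.05. Grb14 spanned 3.35 to 4.38 in responders (median 3.75) and 3.15 to 4.29 in non-responders (median 3.61). Here too 8 of 10 responders exceeded the mean of the non-responders scanned with them, and the groups overlapped. The Grb14 difference was 0.10 (SE 0.10; -0.12 to 0.32; adjusted p = 0.818), with 0.26 and -0.05 in the 2 series. A second, dim Grb14 probe, detected over background in 6 responders and 4 non-responders, gave -0.08 and did not follow the first (r = 0.188).

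**Figure D1:**
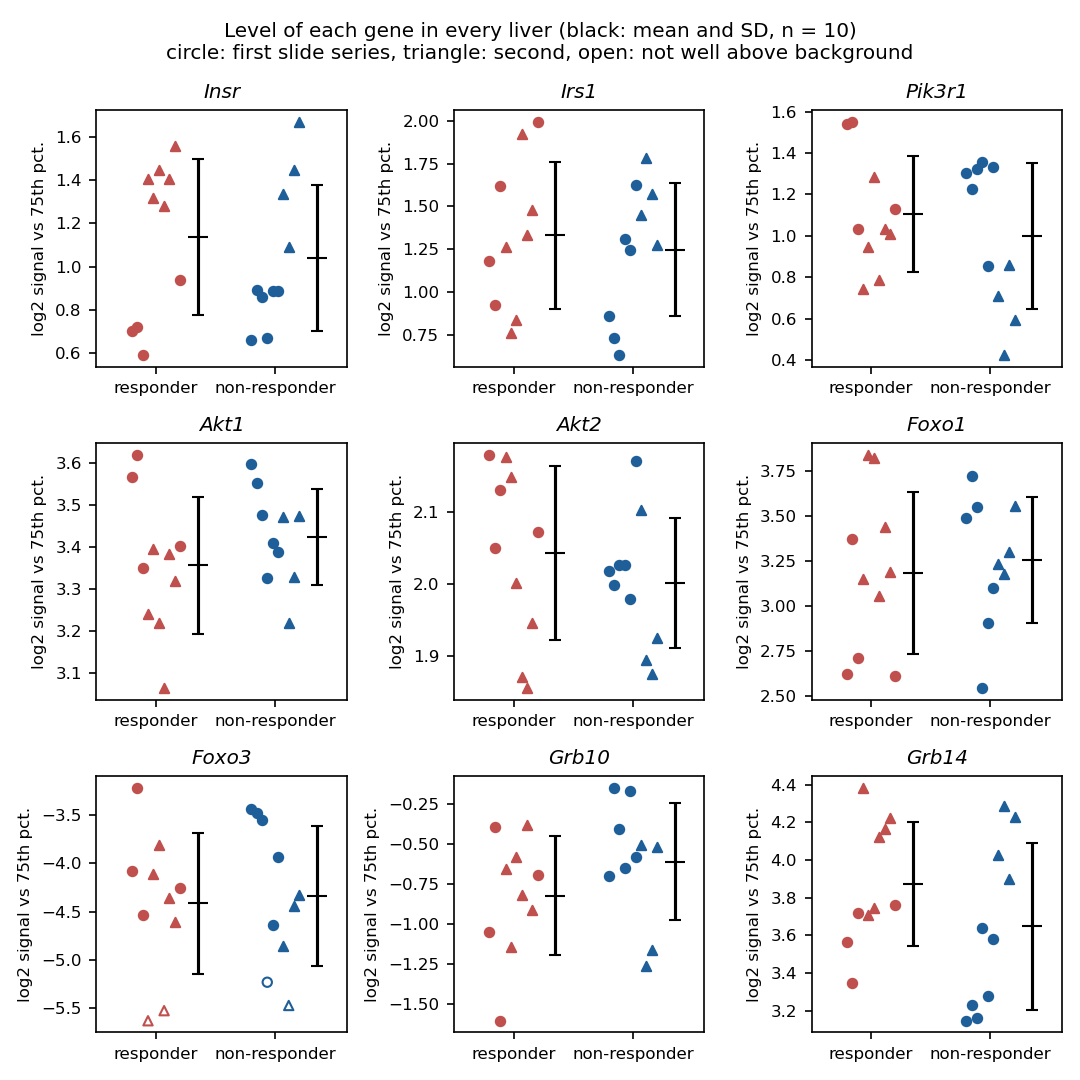
Each panel plots one gene's level (log2 signal relative to the array's 75th percentile) in every liver, responders left and non-responders right, with circles for the first slide series, triangles for the second and open symbols where the probe was not well above background; the bar is the mean and SD of 10 livers. The groups overlap in every panel, and Insr and Grb14 lie higher in the second series.

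**Figure D2:**
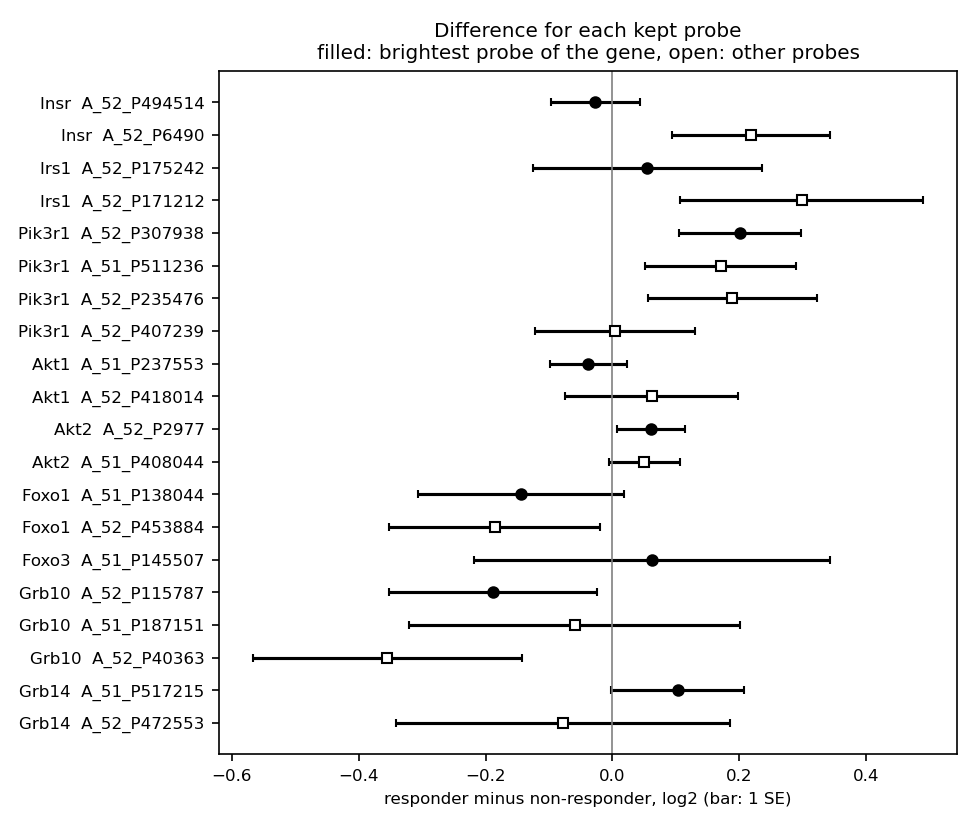
The horizontal axis is the log2 difference (responder minus non-responder) with 1 SE, for each of the 20 kept probes; filled circles are the brightest probe of a gene and open squares its other probes. The Insr probes lie on opposite sides of 0, and all 4 Pik3r1 probes lie at or above it; one Grb10 probe was over background on 5 responder and 0 non-responder arrays, so its point measures no difference.

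Other genes of the pathway were counted from lists. Among receptors, docking proteins and PI3 kinase genes (25 of 26 measured), 14 were higher and 11 lower in responders, the median was 0.01 and 3 had an unadjusted p under 0.05 (12%, against 7.98% of all features): Igf1r, the IGF1 receptor (-0.27), Pik3ca, a catalytic subunit (-0.11), and Sos1 (0.14). Among phosphatases and other brakes (26 of 26), 7 were higher and 19 lower, the median was -0.06, and Fetub (-0.26), Ptpn11 (-0.12) and Ptpn1, which dephosphorylates the receptor (-0.12), were the 3 with an unadjusted p under 0.05 (11.5%). Below PI3 kinase (28 of 28), 13 were higher and 15 lower with a median of -0.0037, and 2 (7.14%) had such a p, Sgk1 (-0.35) and Gsk3b (0.19). Of genes that FOXO raises or insulin lowers (21 of 22), 14 were lower and 7 higher, with a median of -0.16, and 4 (19.0%) had such a p. Igfbp1 led these with -1.56 (SE 0.35, limma adjusted p = 0.346, unadjusted exact permutation p = 0.000612). It spanned 3.74 to 6.52 in responders and 5.27 to 7.31 in non-responders. In 9 of 10 responders Igfbp1 fell under the non-responder mean for their slides. Its difference was -2.37 among first-series arrays and -0.74 among second-series ones (interaction of group and series, unadjusted p = 0.0141, limma adjusted p = 0.438). G6pc was -0.28, made of -0.99 among first-series arrays and 0.42 among second-series ones. Pnpla2 (-0.38), Ppargc1a (-0.46) and Klf15 (-0.37) followed; adipose and skeletal muscle marker means had lower medians in responders too, and their part in these values was not tested. Of genes that insulin raises (13 of 14), 11 were higher and 2 lower, with a median of 0.24, 2 (15.4%) had such a p, and Pklr, pyruvate kinase, was at 0.41. Over all features 8410 were higher and 8800 lower. Srebf1, of this list, was at 0.32, made of 1.03 among first-series arrays and -0.39 among second-series ones. Its interaction of group and series had an unadjusted p = 0.00138 (limma adjusted p = 0.37). No gene of any list passed an adjusted p of 0.05.

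**Figure D3:**
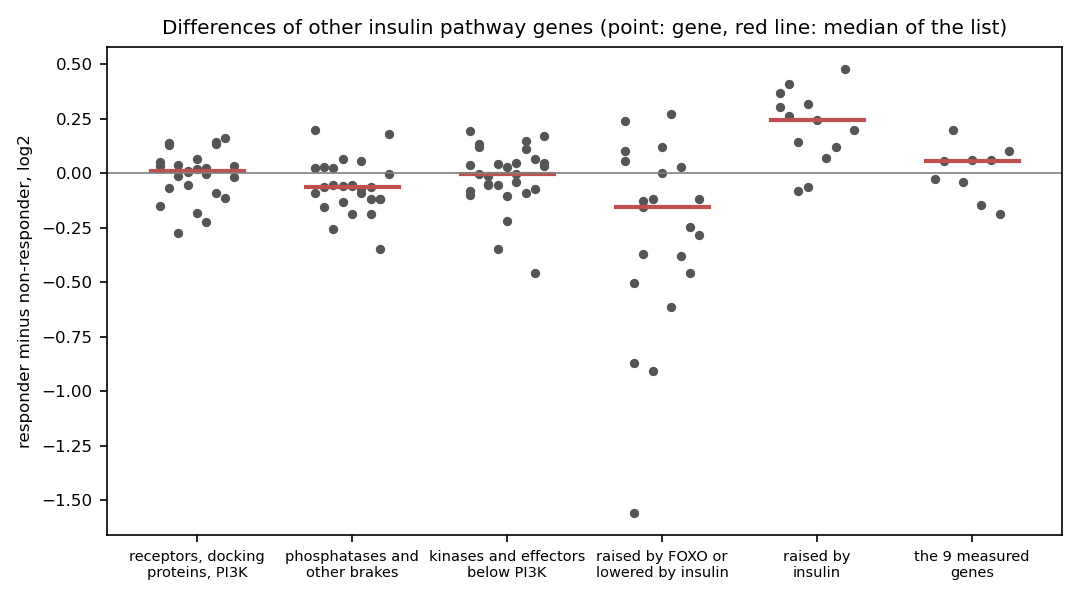
Points are genes of 5 pathway lists and the 9 measured genes, the vertical axis is the difference (responder minus non-responder, log2) and red lines are list medians. The median of genes that insulin raises is 0.24 and that of genes FOXO raises or insulin lowers is -0.16, while the 9 genes centre at 0.05.

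Levels of several of the genes varied together from liver to liver. Responder liver 10 had the lowest Foxo1 and the highest Irs1 of the responders, and responder liver 5 the highest Foxo1 and the lowest Irs1. Over 36 pairs of the 9 genes, on values centred within slide series and tested by permuting within series, 8 pairs had an adjusted p under 0.05, 4 positive and 4 negative. An absolute r as large as the smallest of these (0.56) was reached by 8.12% of all pairs of a measured gene with any tested feature.

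Foxo1 rose with Foxo3 across the 20 livers (r = 0.822, rho = 0.86, raw permutation p = 2e-05 for r, adjusted p = 0.00072; rho adjusted p = 0.00036). Within the 2 series r was 0.833 and 0.856. Irs1 fell as Foxo1 rose (r = -0.811, rho = -0.765, raw permutation p = 4e-05, adjusted p = 0.00072; rho adjusted p = 0.00168), at -0.781 and -0.889 in the 2 series. Grb14 also fell as Foxo1 rose (r = -0.785, rho = -0.785, raw permutation p = 0.00014, adjusted p = 0.00168; rho adjusted p = 0.00144), at -0.85 and -0.724 in the series, -0.89 in responders and -0.647 in non-responders. Irs1 and Grb14 moved together (r = 0.747, rho = 0.675, raw permutation p = 0.00035, adjusted p = 0.00315; rho adjusted p = 0.0115), with 0.889 and 0.578 in the series. Each pair was also read without the 2 livers farthest from the median of a gene in it. That gene was Foxo1 for its pairs with Foxo3 and Grb14, and Irs1 for the other pairs. In the order given, these 4 r were then 0.831, -0.773, -0.757 and 0.659. On values not centred within series Foxo1 and Grb14 gave -0.0719; the second series lay above the first by 0.64 for Grb14 and 0.31 for Foxo1. Normexp background correction turned the sign of Foxo1 with Foxo3 (-0.59), Irs1 (0.329) and Grb14 (0.71), and it fitted a background mean more than 50 units below 0 on 6 arrays. Plain subtraction with an offset kept Foxo1 with Irs1 and Grb14 as calls but not Foxo1 with Foxo3 (0.5). Other probes were read where they exist: the second Foxo1 probe gave r = -0.842 with Grb14 and -0.735 with Irs1, and the second Irs1 probe gave -0.635 with Foxo1 and 0.801 with Grb14. The dim Grb14 probe gave -0.0968 with Foxo1. The second Foxo3 probe, which cleared background in 4 responder livers and 4 non-responder livers, gave 0.26 with Foxo1 and 0.285 with the second Foxo1 probe.

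Foxo3 was dim, and its other calls were weaker. It fell with rising Irs1 (r = -0.64, rho = -0.704, raw permutation p = 0.00334, adjusted p = 0.0172; rho adjusted p = 0.00662) and Grb14 (r = -0.668, rho = -0.722, raw permutation p = 0.00235, adjusted p = 0.0142; rho adjusted p = 0.00662), and rose with Akt1 (r = 0.656, rho = 0.592, raw permutation p = 0.00236, adjusted p = 0.0142; rho adjusted p = 0.0435). Over the 16 livers with Foxo3 well above background, r was 0.839 with Foxo1, -0.733 with Irs1, -0.592 with Grb14 and 0.366 with Akt1. Insr and Grb10 gave r = 0.56 (rho = 0.511, raw permutation p = 0.00739, adjusted p = 0.0333; rho adjusted p = 0.0976), a call that rho missed and that ended without responder liver 3 (0.484) or without non-responder liver 2, 3, 5, 8 or 10 (lowest 0.497, without liver 8). Both correlated with the array's 75th percentile, at r = 0.415 for Insr and 0.604 for Grb10, and the part of array brightness was not tested. The 2 livers farthest from the median of the first-named gene were left out of each pair. The pairs Insr with Grb10 (r = 0.485), Akt1 with Foxo3 (0.606) and Foxo3 with Grb14 (-0.607) then no longer passed. Whether this came from those livers or from the smaller number of livers was not tested. Subtraction with an offset ended Irs1 with Foxo3 (-0.434) and Akt1 with Foxo3 (0.565), and normexp turned Akt1 with Foxo3 to -0.77. Akt2 was in no called pair.

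**Figure D4:**
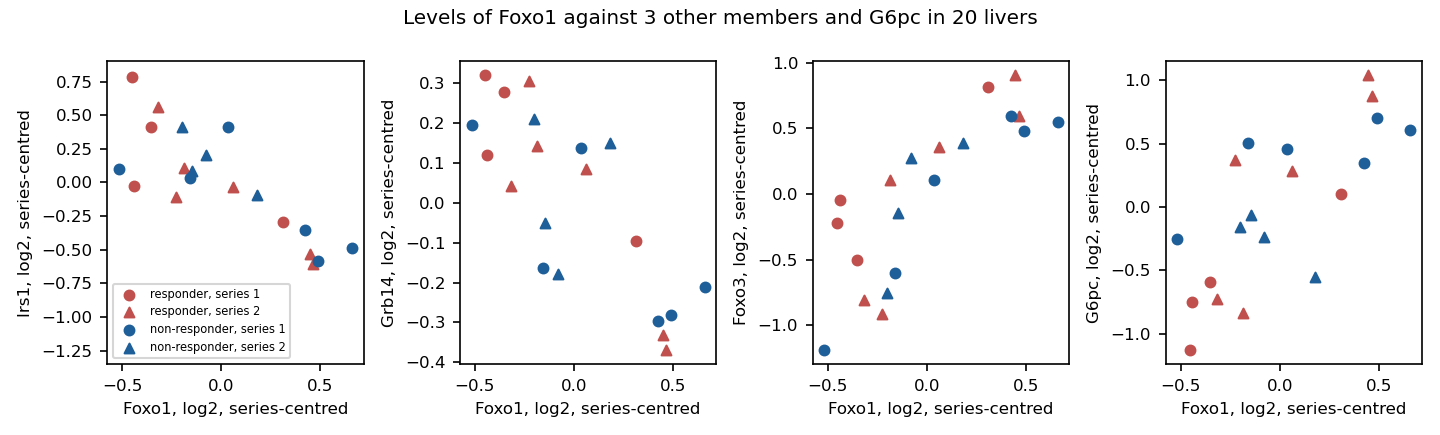
Each point is a liver, with the Foxo1 level (log2, centred within slide series) on the horizontal axis and Irs1, Grb14, Foxo3 or G6pc on the vertical; red is responders, blue non-responders, circles the first series and triangles the second. Irs1 and Grb14 run downward (r = -0.811 and -0.785), Foxo3 and G6pc upward (0.822 and 0.747), with both groups along each line.

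With 5 output genes, G6pc, Igfbp1, Ppargc1a and Srebf1 among them, 3 of 45 pairs had an adjusted p under 0.05, all with G6pc, the last enzyme of glucose release. An absolute r as large as the smallest of these (0.702) was reached by 2.16% of pairs of a measured gene with any feature. G6pc rose with Foxo1 (r = 0.747, rho = 0.759, raw permutation p = 0.0002, adjusted p = 0.009; rho adjusted p = 0.0072; 0.797 and 0.716 in the 2 series). It fell with rising Irs1 (r = -0.743, rho = -0.72, raw permutation p = 0.00049, adjusted p = 0.011; rho adjusted p = 0.0216) and Grb14 (r = -0.702, rho = -0.677, raw permutation p = 0.00115, adjusted p = 0.0173; rho adjusted p = 0.029). Without the 2 livers farthest from the median of Foxo1, Irs1 or Grb14 in turn, these r were 0.71, -0.633 and -0.589 and none passed. Leaving out responder liver 6 or 10 ended the Grb14 and G6pc call (r = -0.656 in both cases). Igfbp1, which differed most between groups among the listed targets, gave 0.589 with Foxo1 (adjusted p = 0.119).

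The 4 linked genes also varied with some clock genes, from a list added after the correlations were seen and given with no test. Among 20 livers Foxo1 correlated with Per1 (r = 0.69), Cry1 (0.677), Per2 (0.659) and Nr1d1 (-0.629). In the first and second series Foxo1 gave 0.756 and 0.747 with Per1, and 0.67 and 0.751 with Per2. It gave 0.784 and 0.436 with Cry1, and -0.723 and -0.411 with Nr1d1. Over all livers Grb14 correlated with Per1 (-0.738), Nr1d1 (0.713) and Cry1 (-0.698), Irs1 with Per1 (-0.717) and Per2 (-0.708), and Foxo3 with Per2 (0.782). Akt1 gave -0.745 with Clock and -0.706 with Arntl. For each gene these r were among the larger over the 11 clock genes. Arntl, Dbp and Nr1d2 gave -0.119, 0.186 and 0.21 with Foxo1, and 0.201, -0.23 and -0.23 with Grb14. With Irs1 they gave 0.322, -0.367 and -0.365, and with Foxo3 -0.428, 0.468 and 0.429. The first component of 11 clock genes held 68.2% of their variance. It correlated with Foxo1 at -0.431, Grb14 at 0.479, Irs1 at 0.563 and Foxo3 at -0.656. With this component removed, 4 pairs were called: Foxo1 with Foxo3, Irs1 and Grb14, and Irs1 with Grb14. Clock gene variation outside the component was left in, so these calls do not show the pairs without it. Time of day is not in the labels, and its part was not tested. The mean hepatocyte marker level correlated with Foxo1 at 0.735, Grb14 at -0.663, Irs1 at -0.598 and Foxo3 at 0.552 (without Tat, 0.588, -0.508, -0.511 and 0.436). With the mean that included Tat removed, 8 pairs among the genes were called and 0 with an output gene. Tat is also on the list of genes that FOXO raises or insulin lowers. Removal of the mean without Tat was not tested.

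**Figure D5:**
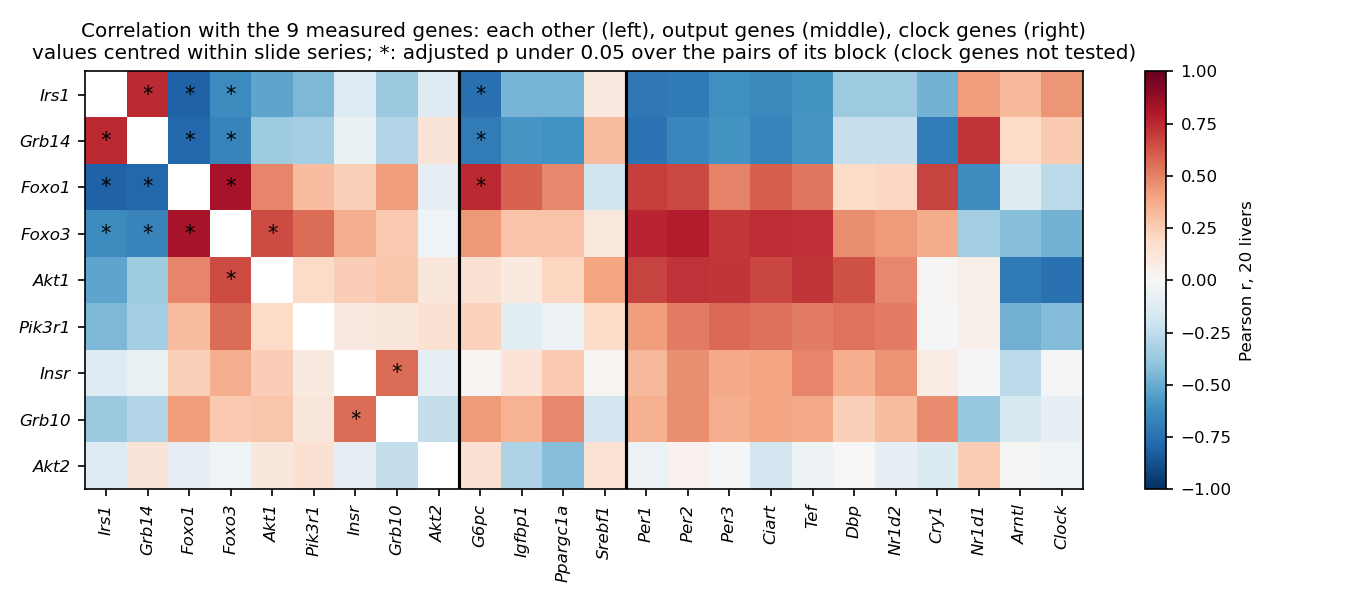
Rows are the 9 genes and columns the same genes, 4 output genes and 11 clock genes; colour is Pearson r over 20 livers on values centred within slide series, and stars mark an adjusted p under 0.05 in the first 2 blocks. Irs1 and Grb14 share their colours in most columns, and Foxo1 and Foxo3 carry mostly the opposite ones.

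Of 13570 named genes searched, those most like each member over the 20 livers were Dync2h1 (r = 0.915), Nrg4 (0.909) and Rhobtb1 (0.908) for Foxo1. For Grb14 they were Hsd3b7 (0.927), Ctc1 (0.924) and Pnpla7 (0.92), and for Irs1 Zmynd8 (0.921), Wdr78 (0.911) and Apol9a (0.879). Rcbtb1 (0.898), Cdk18 (0.89) and Rnf169 (0.886) were most like Foxo3. The nearest to Insr was Ube3a (0.82), to Pik3r1 Aacs (0.762), to Akt1 Agpat1 (0.847), to Akt2 Rcc1l (0.852) and to Grb10 Ddx55 (0.75).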

How the data were processed

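Spot intensities of 20 arrays were analysed as the authors deposited them. Per the file headers, Feature Extraction 10.5.1.1 subtracted the background from this intensity and corrected spatial trends; the submitters' processing notes name version 9.1. Control and outlier-flagged spots were left out. Each array was scaled to its 75th percentile before log2. A probe was kept if 5 or more arrays of either group had it over background, 26160 in all, and a gene was read by its brightest. The 75th percentile lay between 280.1 and 417 in the first slide series and between 413 and 657 in the second. Precision is limited by the number of arrays.

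The comparison used limma 3.58.1 with R 4.3.3 (group and slide series as terms, Benjamini-Hochberg over 17210 features). Series were read from the scan date, and the slide numbers separated into the same series. Correlations used 100000 permutations within series, two-sided. The exact permutation tests of single genes were two-sided, and their p-values were not adjusted. The fit was tested on simulated data. Members, lists and tests were chosen with earlier results of these data known; the clock list, the motifs and some alternatives were added after correlations were seen. All members and probes, the leading genes of each list and the most alike genes are named, except that 1 gene counted in a list and in the pairs is not reported here. Symbols came from the RefSeq gene table. Alternatives are given in the closing section.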

Additional observations from a re-analysis of the deposited data

How the results depend on the processing

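No member passed an adjusted p of 0.05 under any alternative, and no other feature did. With normexp background correction the members' differences kept their sign but grew to -0.46 for Akt1, -0.46 for Foxo1 and 0.38 for Foxo3, and turned sign to -0.10 for Irs1, -0.0091 for Pik3r1, -0.22 for Akt2, 0.039 for Grb10 and -0.33 for Grb14. This correction fitted a background mean more than 50 units below 0 on 6 arrays, 4 of them responders', and also called 24 pairs among members and 20 with output genes. It turned r for Foxo3 with Srebf1 (-0.625), Grb14 with G6pc (0.653), Irs1 with G6pc (0.245), Pik3r1 with Igfbp1 (0.592), Akt1 with Foxo3 (-0.77) and Grb14 (0.903), Akt2 with Foxo1 (0.828), Foxo1 with Foxo3 (-0.59) and Grb14 (0.71), Insr with Akt2 (0.807), Foxo3 (-0.835), Grb10 (-0.0573), Grb14 (0.783) and Irs1 (0.577), and Irs1 with Akt1 (0.603), Akt2 (0.568) and Foxo1 (0.329); the cause was not tested. Background subtraction with an offset, added after seeing the data, gave -0.0063 for Foxo3 and 6 and 2 called pairs. The mean of all probes gave 0.10 for Insr and 0.012 for Akt1, no series term 0.10 for Insr and -0.076 for Foxo3, and the replicate block -0.094 for Foxo3, with no call changed. Same-numbered livers correlated at -0.183 to 0.592, above 0.1 in 6 of 10 pairs. Only 3 responders were most like the non-responder of their own number. The main fit did not take the numbers as a pairing. In the first series alone Akt1 was 0.027, and in the second Insr was 0.016, Irs1 -0.25, Foxo1 0.10, Grb10 0.11 and Grb14 -0.053. A hepatocyte covariate, added after seeing the data, gave -0.044 for Irs1. Leaving out livers gave -0.076 to 0.012 for Insr, -0.059 to 0.12 for Irs1, -0.056 to 0.15 for Foxo3 and -0.064 to -0.016 for Akt1. The Akt1 difference was 0.0023 without responder liver 7 and non-responder liver 7 together. This alternative was planned for the differences and added for the pairs after seeing the data. Called pairs among members numbered 8, against 4 and 2 in the series alone, 4 after the clock component, 5 without the 2 farthest livers and 7 to 10 leaving out a liver. Pairs with output genes numbered 3, against 5 with rho, 1 and 0 in the series alone, 0 after hepatocyte markers, 1 with values centred by series and group, 1 without centring, 0 without the 2 farthest livers and 2 to 6 leaving out a liver, with 6 without non-responder liver 4 and 5 without non-responder liver 10. Without centring r was 0.74 for Insr with Grb14 and -0.616 for Insr with Pik3r1.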
